A study of Sus scrofa with 19 samples.

Results

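Liposomal doxorubicin (Myocet, MYO) was compared with control (Control) in left ventricular (LV) myocardium of pigs. The 5 libraries whose count files are labelled MYO were set against the 3 labelled Control, which are 8 of the 19 libraries of the series, with 1 library per pig. The methods of the study describe all pigs as female large whites. MYO pigs were given 3 cycles of Myocet at 60 mg/m2 of body surface, and their anterior wall was sampled 3 months after the first cycle. Control pigs received no anthracycline, and their anterior wall was sampled at 6 months. The sample descriptions call the controls sham-operated, whereas the methods of the study call them untreated and of equal age to the other pigs. The other groups appear below only beside these 8 libraries. They are 5 pigs given free doxorubicin (DOX) at the same dose, cycles and follow-up, 3 with a reperfused infarction whose remote posterior wall was taken at 6 months (RemoLV), and 3 with a stenosis of the aortic isthmus sampled at 6 months (Hyper). The MYO and DOX libraries went against the stated sex. DDX3Y, an RNA helicase gene of the Y chromosome, was at 96.1, 107, 99.1, 98.9 and 102 CPM (counts scaled to 1000000 per library) in MYO, with 0 counts in every Control library. The Y-linked genes EIF1AY, ZFY and KDM5D were at 41.6 to 52.7, 19.9 to 24.9 and 7.45 to 9.48 CPM in MYO, again with 0 counts in Control. All 5 DOX libraries held these transcripts as well, and no Hyper or RemoLV library had more than 4 counts of any of the 4 genes. Drug, follow-up time and the sex of the pigs changed together between MYO and Control under either naming of the libraries given below, and cannot be told apart. The data of the treated pigs had been published before by the same group, and whether the Control libraries were made together with them is not given in the sources used here.

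Doxorubicin is an anthracycline that intercalates into DNA and traps topoisomerase II on it, and it also enters mitochondria, where it cycles electrons onto oxygen and binds iron. Heart muscle cells hardly divide, are rich in mitochondria and hold the beta isoform of topoisomerase II, and their loss with replacement by scar is the known cardiac toxicity of the drug. Myocet carries doxorubicin as a citrate complex inside liposomes, which leave the blood through leaky tumour vessels more readily than through the tight capillaries of the heart, and is given to limit this toxicity. The comparison asks which genes differ in the LV after the liposomal drug.

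The names of the libraries differ between the deposited files. A table of transformed expression deposited by the authors has 19 sample columns, and each had a Spearman correlation of 1.0 with 1 count file and of at most 0.9919 with any other. For 8 columns the group name in the table was not the group label of that count file. Its 3 Control columns match the RemoLV-labelled count files and its 3 RemoLV columns the Control-labelled ones. It also exchanges the count files labelled DOX5 and MYO1. Below, MYO and Control are the labels of the count files (file labels), and calls are by file label unless said otherwise. Counts over gene lists are set beside the same comparison with the names of the table (table names), in which MYO stands for MYO2 to MYO5 with DOX5, and Control for the 3 RemoLV-labelled libraries. MYO2 to MYO5 are shared by both comparisons, so the second does not repeat the first in other animals. Ventricular genes bore on the names. MYL2, the ventricular regulatory light chain of myosin, was at 9941 to 13502 CPM in MYO and at 13577 to 18077 CPM in Control, but at 18.6 to 115 CPM in the RemoLV-labelled libraries. MYL4, the atrial essential light chain, was at 6029 to 8130 CPM in these and at 0.594 to 21.9 CPM in MYO and Control. The summed level of 11 atrial markers was 120.5 to 150.0 CPM in MYO, 127.2 to 148.9 CPM in Control and 6477 to 8693 CPM in the RemoLV-labelled libraries. The label of LV myocardium was thus met in MYO and Control and not in the RemoLV-labelled libraries, and every difference with table names is against libraries that carry this atrial profile.

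The MYO libraries held 10147011 to 14851481 counts and the Control libraries 17458641 to 20370209 counts. No MYO or Control library differed from another of its group by as little as counting noise. Of 25879 genes in the files, 13552 passed the filter on low counts and were tested. By file label, 2804 genes were higher in MYO (20.7% of those tested) and 2944 lower (21.7%) at an adjusted p of at most 0.05 in the quasi-likelihood test of edgeR with Benjamini-Hochberg adjustment. A gene past this threshold is called in the text below, and it is counted as a differentially expressed gene (DEG) when its log2 fold change is also at least 2 in size. There were 167 DEGs higher (1.23%), 12 of them on chromosome Y, and 168 lower (1.24%) in MYO. The MYO and Control libraries did not overlap for 5099 genes (37.6%), among them 269 of the 335 DEGs. The counts depended on single Control libraries, since 1826 genes were called higher without Control3 and 345 were DEGs higher without Control2. With 5 and 3 animals in the comparison, the p-values rest on a spread between pigs estimated over all 5 groups of 19 libraries. A fit of only the MYO and Control libraries called 2445 genes higher and 2792 lower, with 126 and 126 DEGs. No batch of library preparation or sequencing is given in the sources used here.

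With table names, 2003 genes were called higher (14.8%) and 1948 lower (14.4%), among them 205 DEGs higher (1.51%) and 362 lower (2.67%). Of the 5748 genes called by file label, 1083 were called in the same direction with table names, 584 of them higher in MYO (4.31% of genes tested) and 499 lower (3.68%). Another 623 (4.60%) were called in opposite directions, and 4042 were not called with table names. Of the 335 DEGs by file label, 79 were DEGs in the same direction with table names (33 higher, 10 of them on chromosome Y, and 46 lower) and 17 in the opposite direction. The namings differ both in the libraries that stand as Control and in 1 MYO library, and the part of each was not tested. Many of the genes called under both namings are pointed out below.

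**Figure D1:**
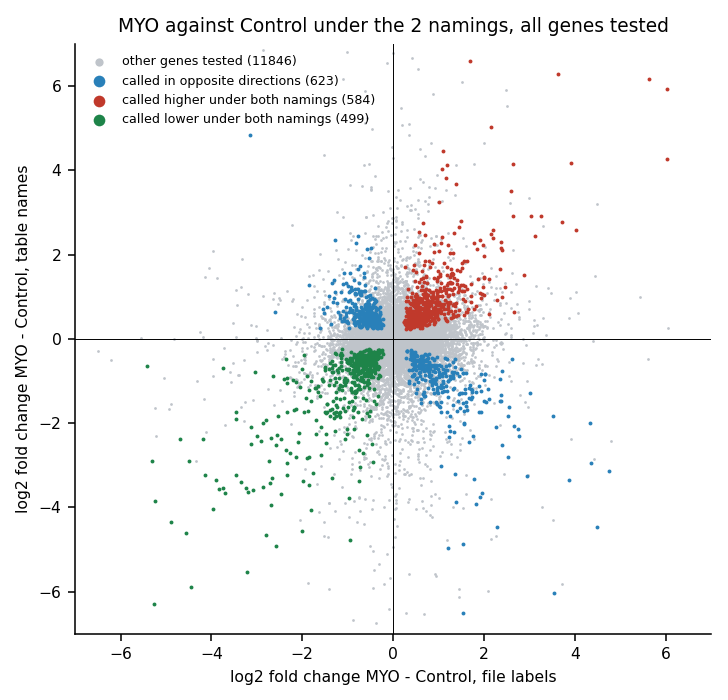
Log2 fold change of MYO against Control for each gene tested, with the file labels on the horizontal axis and with the names of the authors' table on the vertical axis. The genes called in the same direction under both namings (1083) lie at lower left and upper right, and those called in opposite directions (623) at upper left and lower right; 42 genes lie outside the axis limits of 7.

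The base composition of the transcripts moved with the comparison. The median GC content was 60.1% for genes called higher by file label, 43.3% for genes called lower and 50.9% for genes not called. Over 10 equal groups of genes ordered by GC content, from the poorest to the richest, the median log2 fold change went from -0.46 to 0.65, and the share of genes called higher from 1.43% to 60.7%. Within libraries, the Spearman correlation between GC content and the level of a gene relative to its mean over all libraries was 0.331 to 0.448 in MYO and -0.533 to -0.247 in Control, and 0.161 to 0.334 in DOX. The comparison was therefore repeated with a correction for GC content in each library (GC offsets), an alternative added after the values were seen. It left 1443 genes higher (12.2% of 11871 with a GC value) and 1984 lower (16.7%). Of 5111 called genes with a GC value, 2423 were called in the same direction with the offsets and 28 in the opposite direction. In all 4 fits, under both namings with and without the offsets, 150 genes were higher, 7 of them on chromosome Y, and 165 lower. The part of the GC content in single results was not tested otherwise. The share of counts from mitochondrial genes was 13.7% to 19.5% in MYO and 20.7% to 28.8% in Control.

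**Figure D2:**
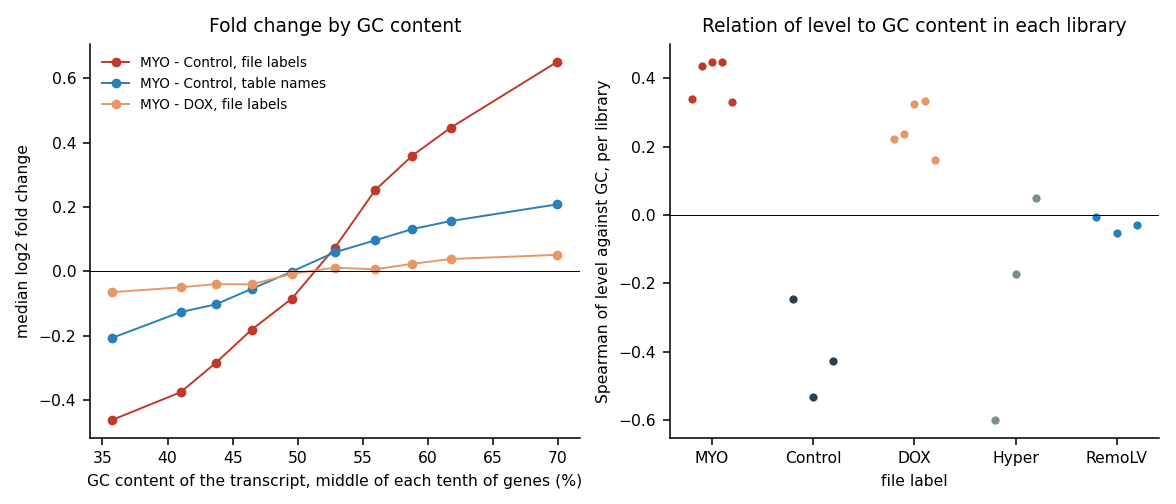
Left, median log2 fold change in each of 10 equal groups of genes ordered by the GC content of the transcript (%), for MYO against Control by file label, the same with table names, and MYO against DOX. Right, Spearman correlation in each library between GC content and gene level relative to the mean of all libraries, by group; MYO and DOX lie above 0 and the Control libraries below.

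Genes from the 10 with the largest higher and the 10 with the largest lower fold change in MYO are given first. They were ranked among well-expressed genes with a symbol and off chromosome Y, whose MYO and Control libraries did not overlap. Values are in CPM after scaling by the trimmed mean of M-values (TMM), in the order of replicates 1 to 5 for MYO and 1 to 3 for Control. In bulk tissue, fewer cells of a type and less RNA per cell cannot be told apart. NPPB, which encodes the precursor of B-type natriuretic peptide, a hormone of stretched ventricular muscle, led the higher genes (chromosome 6, 71930374 to 71931843). It stood at 37.8, 202, 22.8, 28.3 and 14.4 CPM in MYO and at 2.99, 0.534 and 0.846 CPM in Control. MYO2 was far above the other treated pigs, but even the lowest MYO library was above every Control library. The log2 fold change was 5.43 ± 1.01 (SE, edgeR adjusted p 0.00045), and 5.10 with GC offsets. DOX libraries had 7.55 to 41.8 CPM, Hyper 0.618 to 2.56 CPM and the RemoLV-labelled libraries 19.6 to 47.0 CPM, and with table names the fold change was 1.00 ± 0.73 (edgeR adjusted p 0.32).

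GNAS, the stimulatory G protein alpha subunit that couples beta-adrenergic receptors to adenylyl cyclase, stood at 42.1, 36.0, 57.5, 54.4 and 43.6 CPM in MYO and at 7.17, 9.74 and 5.99 CPM in Control. The lowest MYO or DOX library had 35.1 CPM and the highest Control or Hyper library 9.74 CPM. The log2 fold change of GNAS was 2.61 ± 0.19 (edgeR adjusted p 2e-08), the smallest standard error among the 10, while the RemoLV-labelled libraries had 55.3 to 71.3 CPM, and with table names it was -0.49 (edgeR adjusted p 0.030).

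The other higher genes were ASB18, C1QTNF6, TYMS, KCP, MFAP2, TPPP and RGS6, with log2 fold changes of 2.31 to 2.74. C1QTNF6, a secreted protein with a C1q domain, was at 15.8 to 29.6 CPM in MYO and 2.68 to 4.57 CPM in Control (2.59 ± 0.27, edgeR adjusted p 1.9e-06). The RemoLV-labelled libraries had 16.7 to 22.9 CPM of C1QTNF6, and it was not called with table names (0.05, edgeR adjusted p 0.91). MFAP2, a glycoprotein of elastic microfibrils, was at 13.8 to 22.4 CPM in MYO and 2.67 to 4.25 CPM in Control (2.39 ± 0.25, edgeR adjusted p 1.7e-06), but higher still in the RemoLV-labelled libraries at 25.3 to 32.2 CPM, and it was called lower with table names (-0.76, edgeR adjusted p 0.014). With GC offsets C1QTNF6 was at 2.0 and MFAP2 at 1.79 by file label. KCP, a secreted protein that enhances bone morphogenetic protein signalling, rose from 0.987 to 1.96 CPM in Control to 4.99 to 12.5 CPM in MYO, and was called higher in all 4 fits, at 1.74 by file label with GC offsets. TYMS (thymidylate synthase, needed for DNA synthesis) was at 5.75 to 16 CPM in MYO and 1.13 to 2.49 CPM in Control, and was also called higher in all 4 fits. TPPP, which promotes the assembly of tubulin, was at 26.8 to 61.5 CPM in MYO and 4.73 to 12.8 CPM in Control and was not called with table names (edgeR adjusted p 0.44). RGS6, a brake on G protein signalling, was uneven in MYO, with 2.77, 4.43, 20.7, 34.8 and 2.96 CPM against 1.27 to 2.73 CPM in Control, and lost its call by file label with GC offsets (edgeR adjusted p 0.087 in place of 0.040) and without any 1 of the Control libraries, MYO3 or MYO4. With table names it was called lower (-2.15, edgeR adjusted p 0.019).

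Among the 10 lower genes were several regulators. ZBTB20, a zinc finger transcription factor (chromosome 13, 144855821 to 145668320), was at 1.98, 2.42, 1.55, 1.13 and 2.88 CPM in MYO and at 90.7, 84.8 and 80.7 CPM in Control. The log2 fold change was -5.41 ± 0.20 (edgeR adjusted p 4.1e-12) and the replicates were close in both groups. ZBTB20 was also at 1.47 to 2.86 CPM in DOX and 3.10 to 3.65 CPM in the RemoLV-labelled libraries, and at 87.2 to 108 CPM in Hyper. NFIB, a nuclear factor I transcription factor, was at 7.92 to 12.6 CPM in MYO and 112 to 180 CPM in Control (-3.74 ± 0.19, edgeR adjusted p 1.5e-10). The cell cycle kinase CDK6, the osmotic stress factor NFAT5, the diacylglycerol kinase DGKH, the endocytic kinase AAK1 and ANKRD12 had log2 fold changes of -2.65 to -3.47. In each of these genes, Hyper libraries were near Control and the DOX and RemoLV-labelled libraries near MYO. With table names ZBTB20, NFIB, NFAT5 and AAK1 were called lower by far less, at -0.65, -0.68, -0.78 and -0.88 (edgeR adjusted p 0.039, 0.021, 0.025 and 0.0019). With GC offsets only AAK1 of these kept the call with table names (edgeR adjusted p 0.0035).

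PDK4 behaved otherwise. This kinase switches off pyruvate dehydrogenase and is induced by fasting and fatty acids (chromosome 9, 75246956 to 75260134). It was at 121, 181, 219, 34.2 and 57.6 CPM in MYO and at 2834, 1901 and 3547 CPM in Control, with Hyper at 868 to 2614 CPM and the RemoLV-labelled libraries at 400 to 1117 CPM. All of these lay above every MYO library. The log2 fold change was -4.49 ± 0.63 by file label (edgeR adjusted p 3.9e-05), -2.90 ± 0.59 with table names (edgeR adjusted p 0.0013), and -4.07 and -2.70 with GC offsets. DOX libraries had 34.9 to 285 CPM and overlapped MYO, with DOX1 above every MYO library. CREM and HIPK2 completed the 10. CREM, a cAMP-responsive transcription factor, was at 19.5 to 28.8 CPM in MYO and at 226, 31.5 and 269 CPM in Control, so that its fold change rested on Control1 and Control3. HIPK2, a nuclear kinase, was at 6.67 to 14.1 CPM in MYO and at 97.9, 28.8 and 73.8 CPM in Control. CREM, HIPK2, CDK6, DGKH and ANKRD12 were not called with table names.

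The genes that held under both namings were ranked by the smaller of their 2 fold changes, and the 8 highest and 8 lowest are described next. This ranking, too, was kept to well-expressed genes with a symbol and off chromosome Y. It does not cover all genes tested, of which 33 higher and 46 lower were DEGs under both namings. Here the ranges of MYO and Control did not overlap under either naming. Higher were ASB18, NR1D1, LRFN2, VWA7, SLC16A3, IL2RB, UNC13D and GPR157. ASB18, an ankyrin repeat protein of striated muscle that recruits ubiquitin ligases, was at 39.5, 28.8, 17.7, 17.0 and 11.2 CPM in MYO and at 2.24, 6.53 and 2.05 CPM in Control, and the RemoLV-labelled libraries had 0.211 to 1.69 CPM. Its log2 fold change was 2.64 ± 0.59 by file label (edgeR adjusted p 0.0017) and 4.15 ± 0.70 with table names (edgeR adjusted p 0.00023). IL2RB, the beta chain of the receptors for interleukins 2 and 15, was at 50, 57.3, 43.7, 34.6 and 36.6 CPM in MYO and at 13.5, 19.9 and 14.2 CPM in Control (1.48 ± 0.34, edgeR adjusted p 0.0023). The 13 lymphocyte markers tested had a median log2 fold change of 0.75 and a lowest of 0.14, and 2 were called higher, CD4 among them. CD3E, which marks T cells, was at 2.16 to 5.23 CPM in MYO and 1.48 to 3.58 CPM in Control and was not called (edgeR adjusted p 0.22). UNC13D, a vesicle priming factor of cytotoxic cells, was at 17.9 to 28.7 CPM in MYO and 5.29 to 6.35 CPM in Control (2.01 ± 0.28, edgeR adjusted p 4e-05). GPR157, an orphan receptor, was at 26.4 to 42.9 CPM in MYO and 11.4 to 13.2 CPM in Control, and at 3.57 to 6.32 CPM in the RemoLV-labelled libraries, with a log2 fold change by file label of 1.45, or 0.80 with GC offsets.

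SLC16A3, the lactate exporter MCT4, was at 7.21, 9.28, 4.51, 12.1 and 12.7 CPM in MYO and at 3.43, 1.07 and 3.17 CPM in Control (1.85 ± 0.60, edgeR adjusted p 0.020). SLC16A3 was the only one of these 16 genes to lose its call by file label with GC offsets (edgeR adjusted p 0.16). Both SLC16A3 and MSTN lost it without Control2 and with offsets for GC content and length (edgeR adjusted p 0.19 and 0.069). LRFN2, a synaptic adhesion molecule, and VWA7, a protein with a von Willebrand factor A domain, rose by 2.01 and 1.91 on the log2 scale. Lower under both namings were PDK4, NTRK2, MSTN, NME7, OLFM1, CD302, STARD4 and TACC1. NTRK2, the receptor of brain-derived neurotrophic factor, was at 3.01, 4.50, 2.68, 3.20 and 3.55 CPM in MYO and at 9.55, 24.2 and 11 CPM in Control (-2.14 ± 0.40, edgeR adjusted p 0.00049), and at 16.9 to 31.1 CPM in the RemoLV-labelled libraries. MSTN, the growth inhibitor myostatin, was at 1.69 to 4.40 CPM in MYO and at 5.75, 19.9 and 4.94 CPM in Control (-1.69 ± 0.46, edgeR adjusted p 0.0073). NME7, a nucleoside diphosphate kinase family member, had close replicates, with 2.14 to 3.29 CPM in MYO and 11.2 to 13.5 CPM in Control (-2.14 ± 0.22, edgeR adjusted p 1.6e-06). STARD4, a sterol carrier, was at 3.01 to 7.53 CPM in MYO and 11.2 to 17.6 CPM in Control (-1.45, and -0.97 with GC offsets). OLFM1, a secreted olfactomedin, was at 5.28 CPM in MYO4, at 25.1 to 27.6 CPM in the other MYO libraries and at 36.8 to 74.3 CPM in Control. CD302, a C-type lectin receptor, and TACC1, a centrosomal protein, fell by 1.46 and 1.91 on the log2 scale.

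**Figure D3:**
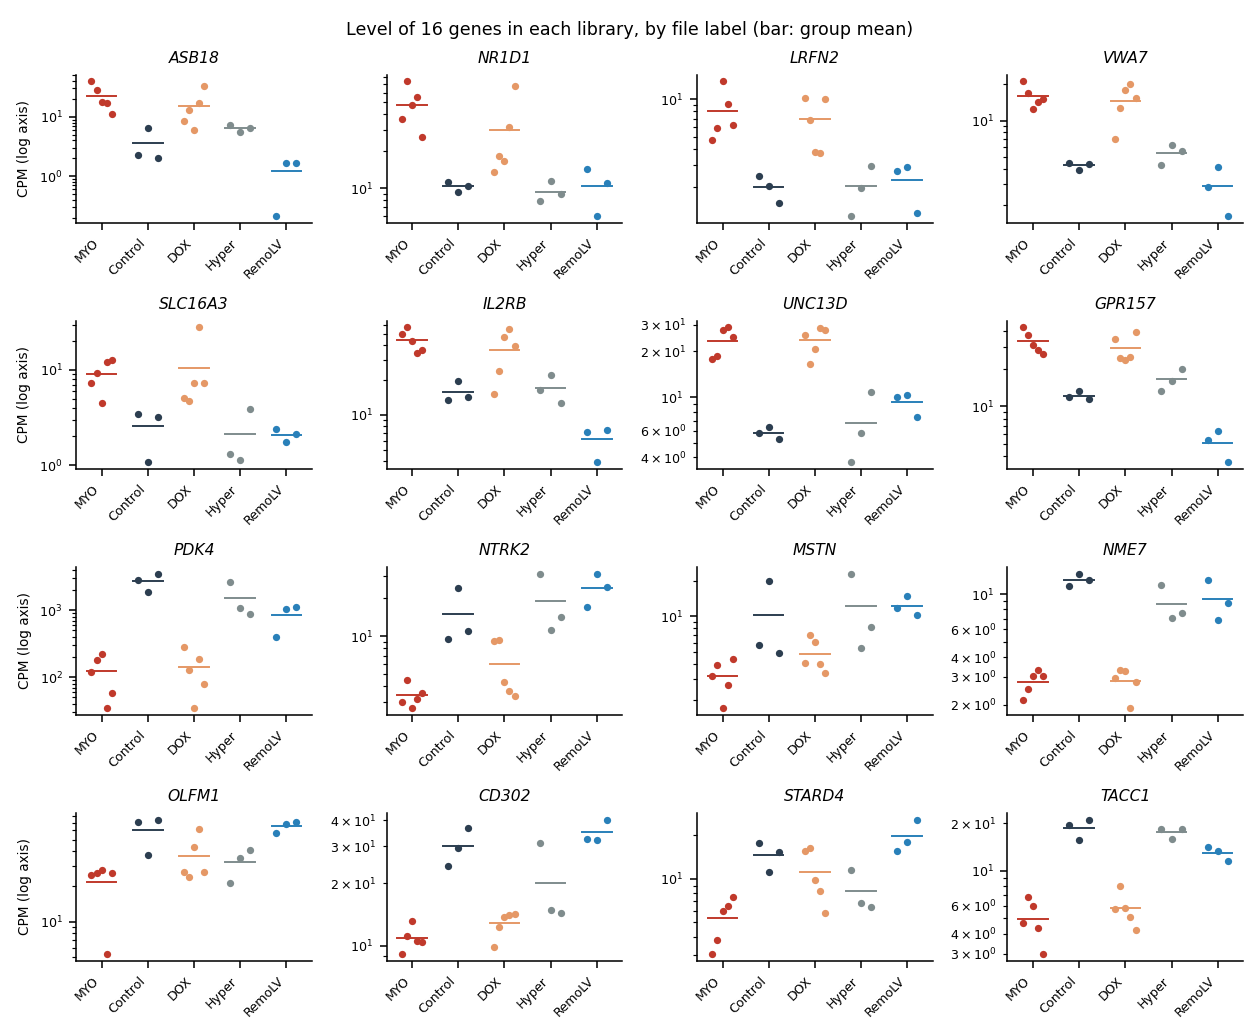
Level of the 16 genes described as held under both namings, in CPM on a log axis, in every library of the 5 groups by file label. Points are libraries and bars group means. In each panel the MYO libraries lie wholly above or wholly below both the Control and the RemoLV-labelled libraries.

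Gene lists were read by the share of members called, beside 20.7% of all genes called higher and 21.7% called lower by file label. With table names these shares were 14.8% and 14.4%. In all 4 fits, 150 genes were higher and 165 lower of 11871 with a GC value. A single member called in all 4 fits was therefore not read as a result about its list. Energy metabolism and translation came first among them. Of 74 nuclear genes for subunits of oxidative phosphorylation, the chain of complexes that makes ATP in mitochondria, 54 were called lower and 1 higher in MYO by file label, with a median log2 fold change of -0.43 against 0.02 for all genes. NDUFB1, a subunit of complex I, was at 119, 107, 104, 101 and 95.1 CPM in MYO and at 311, 224 and 311 CPM in Control (-1.42 ± 0.12, edgeR adjusted p 1.2e-07). ATP5MK, a small subunit of ATP synthase, was at 190 to 232 CPM in MYO and 387 to 571 CPM in Control (-1.20 ± 0.11, edgeR adjusted p 3.6e-07). With GC offsets 37 of 45 members with a GC value were still lower. With table names, however, 30 members were called higher and 0 lower, 16 of them called lower by file label. NDUFS4 was 1 of these, at 184 to 212 CPM in MYO, 335 to 403 CPM in Control and 142 to 165 CPM in the RemoLV-labelled libraries. NDUFB1 and ATP5MK were not called with table names. No member held under both namings.

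Of the 13 subunits encoded in mitochondrial DNA, 11 were lower by file label and 6 with GC offsets. ND3, of complex I, was the only one also lower with table names (edgeR adjusted p 0.047), a call lost with GC offsets (edgeR adjusted p 0.15), and its call by file label was lost with offsets for GC content and length (-0.61 in place of -1.50, edgeR adjusted p 0.14). It stood at 1089, 2037, 1533, 1251 and 1379 CPM in MYO and 4659, 2787 and 4905 CPM in Control. Control2 was the lowest Control library for ND3. For COX1, the catalytic subunit of cytochrome oxidase, MYO2 reached 64688 CPM and Control2 64827 CPM, with the other MYO libraries at 41856 to 50696 CPM and the other Control libraries at 115433 and 135669 CPM, and its log2 fold change of -1.06 became -0.69 with GC offsets. Cytosolic ribosomal proteins, which build the translating ribosome, showed a like pattern, with 55 of 72 lower and 0 higher by file label and 59 lower with GC offsets. RPS29 was at 202, 198, 212, 200 and 162 CPM in MYO and at 577, 472 and 436 CPM in Control (-1.35 ± 0.10, edgeR adjusted p 3e-08), and RPL38 at 127 to 147 CPM in MYO and 271 to 328 CPM in Control. With table names 4 were higher and 3 lower, and RPS29 and RPL38 were at 196 to 202 and 124 to 132 CPM in the RemoLV-labelled libraries. Genes of this family share sequence with many processed copies, so that their counts are uncertain. Of 35 proteasome subunits 21 were lower and 1 higher by file label, and 2 lower and 2 higher with table names. Of 71 mitochondrial ribosomal proteins 30 were lower and 7 higher by file label (20 and 3 without Control3, and 2 higher with GC offsets), whereas with table names 37 were higher and 0 lower, and 11 were called in opposite directions. MRPL57 was higher under both namings and in this ran against its list by file label, with 24.2 to 30.8 CPM in MYO and 8.46 to 10.5 CPM in Control (1.56 ± 0.19, edgeR adjusted p 1.3e-05), and 0.82 with GC offsets, where the call with table names was lost (edgeR adjusted p 0.096).

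Among 43 tested genes of fatty acid uptake and oxidation and targets of PPAR receptors, the fat-sensing regulators of this pathway, 17 were lower and 7 higher by file label (3 higher without Control3 and 3 with GC offsets), and 8 lower and 14 higher with table names, with 5 called in opposite directions. PPARGC1A, the coactivator that drives mitochondrial gene expression, was at 114, 93.7, 103, 86.5 and 87.9 CPM in MYO and at 215, 147 and 221 CPM in Control (-1.0 ± 0.22, edgeR adjusted p 0.0017), and -0.65 with GC offsets. Its relative PPARGC1B moved the other way, at 37.9, 35.5, 51.9, 54.3 and 43.0 CPM in MYO and at 11.7, 24.3 and 10.1 CPM in Control (1.53 ± 0.29, edgeR adjusted p 0.00053). PPARGC1B and the fatty acid transporter SLC27A1, at 141 to 175 CPM in MYO and 99.2 to 111 CPM in Control, were the only members higher in all 4 fits, though SLC27A1 was not called with offsets for GC content and length (edgeR adjusted p 0.069). PDK4 was the only one lower in all 4. CPT1B, the gate for fatty acids into mitochondria, was called higher under both namings at 0.30 and 0.28, but was at -0.07 by file label with GC offsets and not called without Control1 or Control3. UCP3, a mitochondrial uncoupling protein, was at 0 to 0.396 CPM in MYO and at 5.23, 1.07 and 4.87 CPM in Control (-4.26 ± 0.71, edgeR adjusted p 0.00018). DOX, Hyper and RemoLV-labelled libraries had at most 0.624 CPM, so that the Control libraries stood apart from all the others. PPARA followed Control1 and Control3, at 30.9 and 51.9 CPM, while Control2 had 4.04 CPM and MYO 1.95 to 7.83 CPM. PPARGC1A, UCP3 and PPARA were not called with table names. In glucose use, 18 of 42 tested genes were lower and 4 higher by file label (2 higher without Control2), and the counts turned to 3 lower and 18 higher with table names, with 5 called in opposite directions. PDK1, another inhibitor of pyruvate dehydrogenase, was lower under both namings, at 82.9 to 124 CPM in MYO and 140 to 183 CPM in Control (-0.67 ± 0.18, edgeR adjusted p 0.0072), but its call by file label was lost with GC offsets (-0.31, edgeR adjusted p 0.20). MPC2, a subunit of the mitochondrial pyruvate carrier, was at 89.9 to 123 CPM in MYO and 149 to 197 CPM in Control by file label and was not called with table names.

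**Figure D4:**
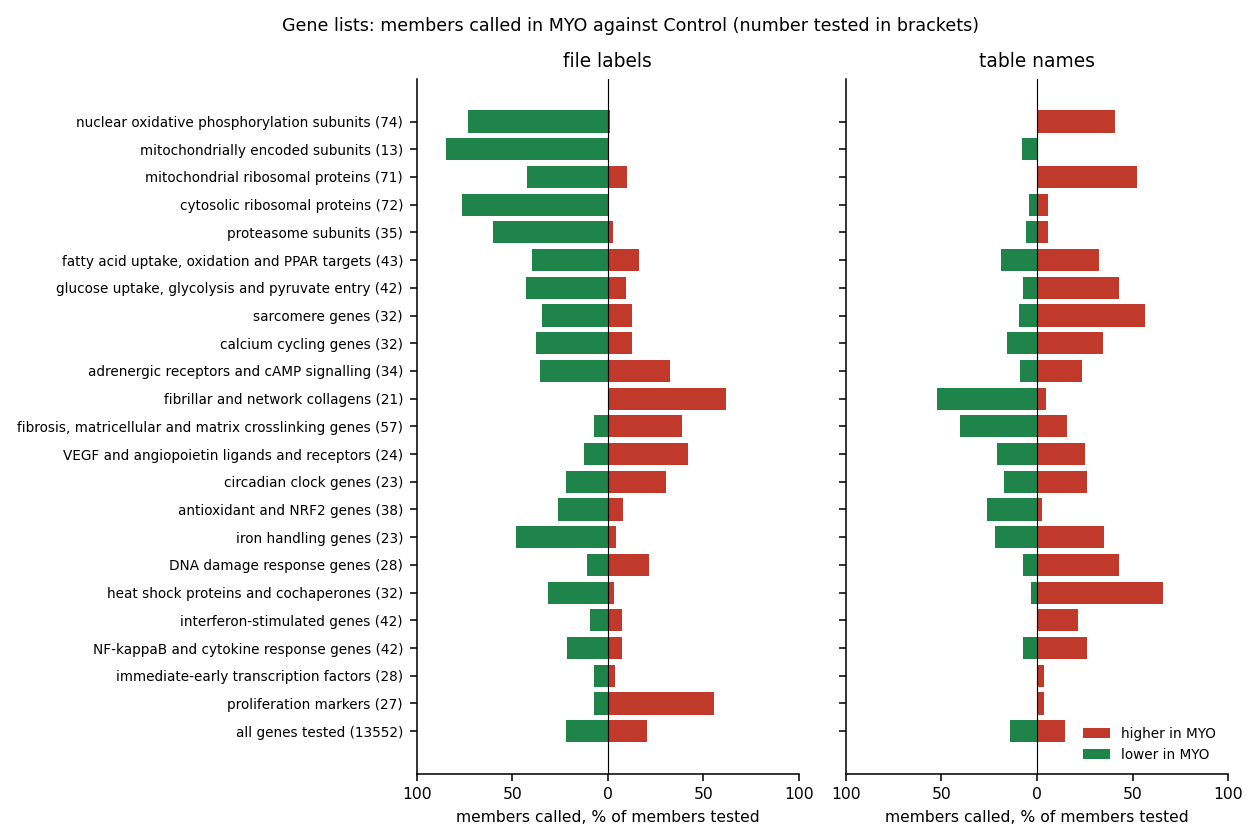
Share of the tested members of each gene list (number tested in brackets) called higher, to the right, or lower, to the left, in MYO against Control, by file label and with table names. Lists of nuclear oxidative phosphorylation, ribosomal and sarcomere genes lean to the lower side by file label and not with table names, and collagens lean to the higher side by file label and to the lower side with table names.

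Of 32 sarcomere genes, 11 were lower and 4 higher (2 higher with GC offsets), and under the other naming 18 were higher and 3 lower. For 8 the 2 calls were opposite. TNNC1, the calcium-binding troponin, was at 4903, 5066, 4361, 4325 and 4317 CPM in MYO and at 7002, 5149 and 7059 CPM in Control (-0.48 ± 0.11, edgeR adjusted p 0.0026), and was not called with offsets for GC content and length (-0.04). With table names TNNC1 was called higher (0.75, edgeR adjusted p 0.0001), with the RemoLV-labelled libraries at 2319 to 2953 CPM. NEXN, which stabilises the Z-disc, was at 560 to 976 CPM in MYO and 1430 to 2135 CPM in Control (-1.30 ± 0.18, edgeR adjusted p 4e-05, and -0.79 with GC offsets). It was at 343 to 403 CPM in the RemoLV-labelled libraries and was called higher with table names (0.97, edgeR adjusted p 0.00078). MYLK3, the cardiac kinase of myosin light chain 2, was the 1 member lower in all 4 fits. It stood at 84.0, 96.4, 89.8, 97.8 and 113 CPM in MYO and at 210, 124 and 211 CPM in Control (-0.92 ± 0.18, edgeR adjusted p 0.00057), and DOX libraries reached from 103 to 188 CPM. MYBPC3, cardiac myosin-binding protein C, was called higher under both namings, and was at -0.01 by file label with GC offsets.

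In calcium cycling, 12 of 32 genes were lower and 4 higher by file label, with a median log2 fold change of -0.23 (1 higher with GC offsets), and 5 were lower and 11 higher with table names, with a median of 0.24. JPH2, junctophilin 2, which holds the sarcoplasmic reticulum to the T-tubule, was at 146, 158, 185, 130 and 140 CPM in MYO and at 70.8, 67.3 and 63.8 CPM in Control. The gap was of similar size under both namings, at 1.17 ± 0.13 (edgeR adjusted p 4.1e-06) and 1.10 ± 0.13 (edgeR adjusted p 6e-06), and smaller with GC offsets, at 0.65 and 0.93. JPH2 was the only member of the list called in all 4 fits. RYR2, the calcium release channel that JPH2 faces, was at 557 to 849 CPM in MYO and at 1746, 1156 and 2090 CPM in Control (-1.30 ± 0.20, edgeR adjusted p 7.5e-05), and was not called with table names. ATP2A2, the calcium pump SERCA2, was lower under both namings at -0.42 and -0.69, with 3722 to 4523 CPM in MYO and 4542 to 6492 CPM in Control, and lost its call by file label with GC offsets (edgeR adjusted p 0.71) and without Control1, Control3, MYO3 or MYO4. CALM2, a calmodulin gene, was at 204 to 246 CPM in MYO and at 799, 428 and 894 CPM in Control, and was not called with table names.

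The adrenergic list, receptors and their cAMP signalling, had 11 higher and 12 lower of 34 members by file label (7 higher without Control3 and 3 with GC offsets), and 8 higher and 3 lower with table names. ADRB1, the main beta receptor of the heart, was at 33.7, 44.3, 51.0, 42.7 and 44.8 CPM in MYO and at 25.2, 18.1 and 14.7 CPM in Control (1.17 ± 0.18, edgeR adjusted p 7.6e-05). DOX libraries had 45 to 55.3 CPM and the RemoLV-labelled libraries 37.3 to 45.5 CPM, and ADRB1 was not called with table names. Its GC-corrected fold change was 0.39 (edgeR adjusted p 0.026). GNAS and the kinase subunit PRKACA were also higher, PRKACA under both namings but not by file label with GC offsets (edgeR adjusted p 0.23). PDE4D, a phosphodiesterase that degrades cAMP, fell from 346 to 543 CPM in Control to 140 to 170 CPM in MYO (-1.42 ± 0.17, edgeR adjusted p 9.7e-06) and was not called with table names. CREB1, the transcription factor at the end of the pathway, was lower under both namings (-0.64 and -0.50), at 13.5 to 20.2 CPM in MYO and 23.1 to 26.4 CPM in Control, and lost its call by file label with GC offsets (-0.15, edgeR adjusted p 0.32). Among stress genes of cardiomyocytes, SYNPO2L, a Z-disc protein, was at 783 to 1161 CPM in MYO and at 437, 712 and 377 CPM in Control and was higher in all 4 fits (0.96 ± 0.19 by file label, edgeR adjusted p 0.00063). GATA4, a cardiac transcription factor that anthracyclines are known to deplete in cultured cardiomyocytes, was at 145 to 179 CPM in MYO and 101 to 108 CPM in Control (0.57 ± 0.10, edgeR adjusted p 0.00024), with 0.20 after GC offsets (edgeR adjusted p 0.11). With table names GATA4 was called higher as well (0.61, edgeR adjusted p 0.00014). ANKRD1, a stretch-responsive gene, had overlapping groups by file label, at 2252 to 7368 CPM in MYO and 3568 to 6220 CPM in Control.

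Collagens turned with the naming. Of 21 tested, 13 were higher and 0 lower by file label, with a median log2 fold change of 0.80, and 1 was higher and 11 lower with table names, with a median of -0.76. The summed level of 12 fibroblast markers, which include fibrillar collagens, was 5047 to 7132 CPM in MYO, 2410 to 3773 CPM in Control and 11520 to 13260 CPM in the RemoLV-labelled libraries. With GC offsets 6 of 20 collagens were higher by file label. COL5A1, a regulator of fibril diameter, was at 209, 250, 225, 251 and 253 CPM in MYO and at 108, 105 and 78.8 CPM in Control (1.29 ± 0.22, edgeR adjusted p 0.00019), and the RemoLV-labelled libraries had 309 to 317 CPM. COL5A1 was not called with table names, and by file label its log2 fold change was 0.52 with GC offsets, without a call (edgeR adjusted p 0.060). DCN, a proteoglycan of fibroblasts, overlapped between MYO and Control at 397 to 546 and 361 to 492 CPM. COL4A2, of basement membrane, was the only collagen higher under both namings, at 1070 to 1539 CPM in MYO and 670 to 754 CPM in Control, and was at 0.03 by file label with GC offsets.

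Of 57 genes of fibrosis and matrix crosslinking, 22 were higher and 4 lower by file label (14 and 1 without Control3, 0 lower without Control1, and 12 higher with GC offsets), and 9 higher and 23 lower with table names, with 8 called in opposite directions. LOXL2, an enzyme that crosslinks collagen, was at 44.8, 68.6, 47.9, 67.6 and 61.5 CPM in MYO and at 22.5, 11.6 and 18.8 CPM in Control. It was higher in all 4 fits, at 1.72 ± 0.25 by file label (edgeR adjusted p 4.6e-05) and 1.01 ± 0.24 with table names (edgeR adjusted p 0.0037), and DOX libraries had 44.5 to 72.6 CPM. Its relative LOX was lower in all 4 fits, at 12.6 to 16.3 CPM in MYO, 14.5 to 28.2 CPM in Control and 58.8 to 81.7 CPM in the RemoLV-labelled libraries, though MYO and Control overlapped (-0.59 ± 0.23, edgeR adjusted p 0.045) and the call by file label was lost without any MYO library, Control1 or Control2, and with offsets for GC content and length. TGFB2, a ligand of the profibrotic TGF-beta pathway, was higher in all 4 fits as well, at 18.8, 28.4, 16.6, 9.70 and 12.0 CPM in MYO and at 9.26, 10.5 and 12.8 CPM in Control (0.66 ± 0.25, edgeR adjusted p 0.040), with MYO4 and MYO5 inside the Control range, and its call by file label was lost without any Control library or without MYO1, MYO2 or MYO3. MMP14, a membrane collagenase, rose from 34.0 to 45 CPM in Control to 78.0 to 98.6 CPM in MYO by file label and was not called with table names. THBS1 and TIMP1 were called lower by file label, and neither was called without Control1 or without Control3, nor TIMP1 without any of the MYO libraries. THBS1, thrombospondin 1, was at 879, 144 and 892 CPM in Control and 62.6 to 146 CPM in MYO, and TIMP1, an inhibitor of metallopeptidases, at 50, 8.91 and 31.2 CPM in Control and at most 15.2 CPM in MYO. Neither was called with table names.

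Of 24 ligands and receptors of the VEGF, angiopoietin and related families, 10 were higher and 3 lower by file label (6 lower without Control2, and 5 higher with GC offsets), 6 higher and 5 lower with table names, and none was called in opposite directions. VEGFA, the main angiogenic ligand (chromosome 7, 38746393 to 38762282), was at 432, 369, 455, 310 and 379 CPM in MYO and at 183, 214 and 202 CPM in Control. The log2 fold changes were 0.96 ± 0.24 by file label (edgeR adjusted p 0.0043) and 1.09 ± 0.25 with table names (edgeR adjusted p 0.0030), and 0.85 and 1.04 with GC offsets. TIE1, an endothelial receptor, was at 125, 96.4, 92.5, 103 and 86.3 CPM in MYO and at 56.1, 47.9 and 49.4 CPM in Control (0.98 ± 0.15, edgeR adjusted p 9.6e-05), and NRP2, a coreceptor, at 40.7 to 60.3 and 25.2 to 32.4 CPM. Both were higher in all 4 fits. TEK, the angiopoietin receptor that pairs with TIE1, was lower under both namings, at 40.9 to 55.4 CPM in MYO and 57.1 to 72.6 CPM in Control (-0.45 ± 0.11, edgeR adjusted p 0.0035), and lost its call by file label with GC offsets (-0.15, edgeR adjusted p 0.28). FGF2 was lower in all 4 fits, at 1.94 to 3.41 CPM in MYO and at 14, 2.85 and 10.4 CPM in Control. PECAM1, which marks endothelium, was at 284 to 357 CPM in MYO and 287 to 362 CPM in Control and was not called, and the summed level of 9 endothelial markers was 815.2 to 886.4 CPM in MYO and 675.6 to 864.4 CPM in Control. HIF1A, the hypoxia-inducible factor upstream of VEGFA, was lower by file label and not called with table names, at 57.7 to 71.2 CPM in MYO and at 168, 98.9 and 185 CPM in Control.

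The circadian clock is a loop in which CLOCK and its partner drive PER, CRY and NR1D1 from E-box elements, and these repress the drivers, while DBP, TEF and NFIL3 act on D-box elements. Of 23 tested clock genes, 7 were higher and 5 lower by file label (4 and 3 without Control3), and 6 higher and 4 lower with table names, with 2 called in opposite directions. To show where these elements lie, the 250 bases before the start of 2 clock genes are printed from the RefSeq genome Sscrofa11.1. Capitals mark the E-box CACGTG, which reads the same on both strands, or the D-box TTATGTAA, searched on both strands. The E-box was found in 6.39% of 19522 windows of this kind and in 4 of 21 clock gene windows, and the D-box in 0.707% and in 1 of 21. The window of PER3 (chr6:68487384-68487633, plus strand) holds an E-box right before the start and a D-box 102 bases before it, and that of NR1D1 (chr12:22263299-22263548, plus strand) none in these letters.
PER3: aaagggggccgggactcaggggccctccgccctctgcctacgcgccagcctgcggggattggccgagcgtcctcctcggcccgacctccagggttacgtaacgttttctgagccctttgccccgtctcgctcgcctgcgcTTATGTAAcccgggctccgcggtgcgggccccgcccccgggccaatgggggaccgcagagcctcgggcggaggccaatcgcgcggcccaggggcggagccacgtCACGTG
NR1D1: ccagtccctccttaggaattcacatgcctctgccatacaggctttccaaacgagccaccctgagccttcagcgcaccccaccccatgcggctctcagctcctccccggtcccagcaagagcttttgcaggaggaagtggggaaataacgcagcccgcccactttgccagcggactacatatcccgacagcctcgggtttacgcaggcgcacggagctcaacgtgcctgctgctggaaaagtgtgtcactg

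NR1D1, the nuclear receptor REV-ERB alpha, a repressor of BMAL1 and of metabolic genes, was at 36.3, 73.9, 47.7, 55.2 and 26.1 CPM in MYO and at 11.3, 9.32 and 10.5 CPM in Control. Every MYO library was above every Control library, and Hyper and RemoLV-labelled libraries had 7.83 to 11.4 and 5.92 to 14.4 CPM. The log2 fold change was 2.21 ± 0.47 by file label (edgeR adjusted p 0.0013) and 2.38 ± 0.37 with table names (edgeR adjusted p 0.00012). CIART, a transcriptional repressor of the clock, was the other member called in all 4 fits, at 29.7, 32.6, 28.4, 46.2 and 20.9 CPM in MYO and at 20.7, 13.7 and 18.4 CPM in Control (0.84 ± 0.27, edgeR adjusted p 0.019). DBP was at 2.06, 3.88, 3.39, 9.95 and 3.38 CPM in MYO and at 0.523, 0.713 and 0.423 CPM in Control (3.00 ± 0.58, edgeR adjusted p 0.00058). TEF was at 6.10, 15.3, 13.2, 27.7 and 11.3 CPM in MYO and at 4.11, 6.00 and 3.67 CPM in Control (1.67 ± 0.47, edgeR adjusted p 0.0081). PER3 was at 7.68, 13.9, 9.10, 22.4 and 9.05 CPM in MYO and at 4.55, 8.31 and 3.74 CPM in Control (1.15 ± 0.38, edgeR adjusted p 0.022). MYO4 was the highest MYO library for CIART, DBP, TEF and PER3, and MYO1 or MYO5 the lowest. Without MYO4 neither CIART nor PER3 was called by file label, and the same was so without Control3. With table names DBP, TEF, PER3 and NFIL3 were not called, and TEF was not called by file label with GC offsets (1.22, edgeR adjusted p 0.057). CRY1 was lower under both namings (-0.82 and -0.77), at 8.74 to 13.3 CPM in MYO and 14 to 22.3 CPM in Control, though not by file label without Control3 or with GC offsets (edgeR adjusted p 0.18). NFIL3, a repressor at D-boxes, was at 15.6 to 40.1 CPM in MYO and at 150, 42.9 and 225 CPM in Control (-2.50 ± 0.50, edgeR adjusted p 0.00073). PER1, PER2 and NR1D2 were not called by file label. The hour of sampling is not given in the sources used here.

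**Figure D5:**
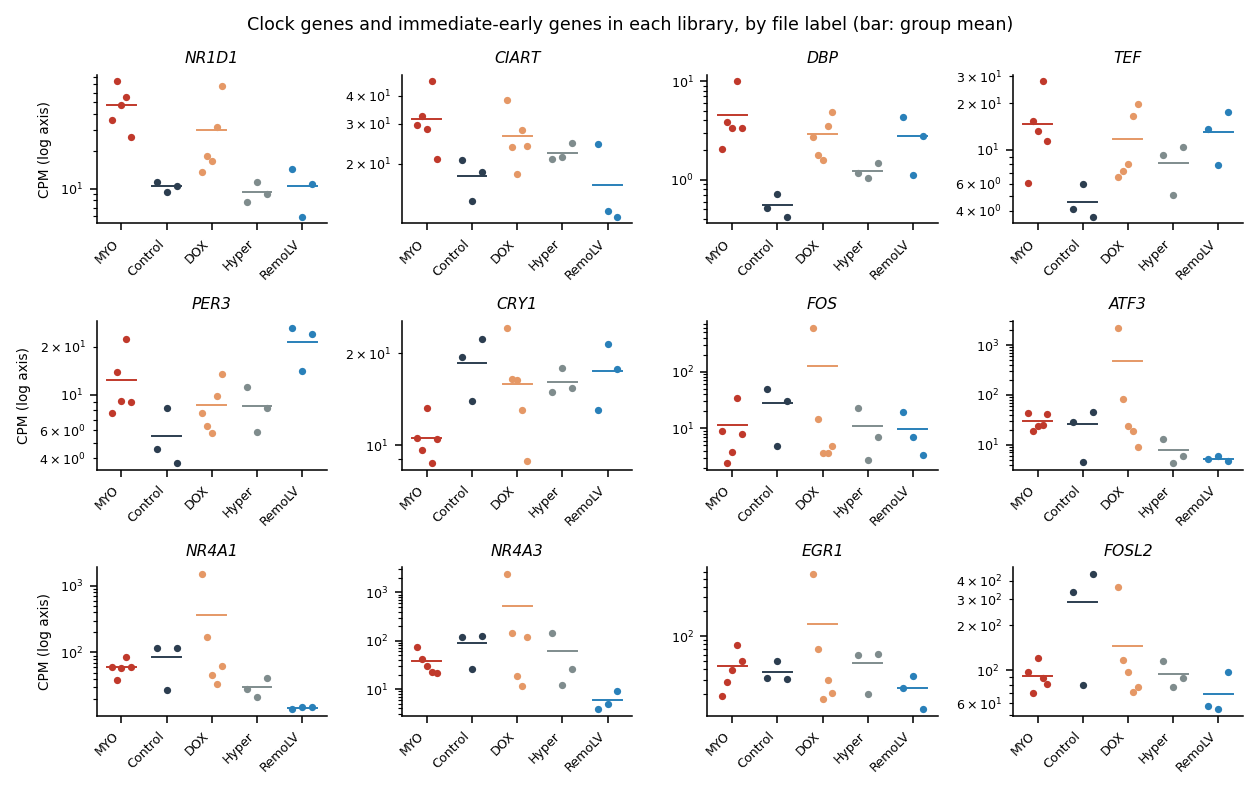
Level in CPM on a log axis of 6 clock genes (NR1D1, CIART, DBP, TEF, PER3, CRY1) and 6 immediate-early genes (FOS, ATF3, NR4A1, NR4A3, EGR1, FOSL2) in every library of the 5 groups by file label, with bars at group means. NR1D1 is above all Control libraries in each MYO library, and for FOS, ATF3, NR4A1, NR4A3 and EGR1 a single DOX library is far above all others.

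Of 26 tested genes for targets of anthracyclines and for their metabolism and transport, 6 were higher and 3 lower by file label, a share called of 34.6% beside 42.4% of all genes, and 7 were higher and 5 lower with table names. Without Control2, 5 were lower by file label, and with GC offsets 7 were. TOP2B, the topoisomerase isoform of heart muscle, was at 110, 97.3, 106, 120 and 112 CPM in MYO and at 114, 139 and 139 CPM in Control and was not called (-0.26 ± 0.11, edgeR adjusted p 0.067, and 0.17 with GC offsets). TOP2A, the isoform of dividing cells, was at 5.57 to 10.5 CPM in MYO and 3.33 to 4.65 CPM in Control (1.03 ± 0.40, edgeR adjusted p 0.047). TDP2, which removes trapped topoisomerase II from DNA ends, was lower in all 4 fits, at 45.9, 38.0, 31.5, 28.8 and 40.3 CPM in MYO and at 56.9, 66.6 and 65.9 CPM in Control (-0.77 ± 0.15, edgeR adjusted p 0.00062, and -0.71 ± 0.16 with table names, edgeR adjusted p 0.0024). By file label it was -0.39 with GC offsets. TDP2 was the only one of the 26 called in one direction under both namings. ABCC1, an exporter of anthracyclines, was at 52.7 to 67.5 CPM in MYO and 25.8 to 41.7 CPM in Control by file label (0.70 ± 0.16, edgeR adjusted p 0.0024), and lost its call with GC offsets (edgeR adjusted p 0.060). TOP2A and ABCC1 were not called with table names. Of 28 DNA damage response genes, 6 were higher and 3 lower by file label, and 12 higher and 2 lower with table names. AEN, an exonuclease induced by DNA damage, was at 29.2, 33.3, 23.7, 27.3 and 30.2 CPM in MYO and at 19.3, 12.4 and 15.0 CPM in Control and was higher in all 4 fits (0.89 ± 0.17, edgeR adjusted p 0.00056). XPC, a sensor of DNA damage, was at 31.8 to 37.2 CPM in MYO and 8.32 to 21.0 CPM in Control. It was called higher under both namings, and not with table names and GC offsets together. The cell cycle brake CDKN1A was at 29.8, 30.9, 18.1, 11.4 and 22.3 CPM in MYO and at 34.9, 8.55 and 43.7 CPM in Control and was not called (edgeR adjusted p 0.52), and MDM2, a ubiquitin ligase, at 27.4 to 35.1 and 35.7 to 41.3 CPM, was not called either (-0.30, edgeR adjusted p 0.051, and 0.08 with GC offsets).

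Of 38 tested antioxidant genes and targets of NRF2, the factor that senses oxidants, 10 were lower and 3 higher by file label (1 higher without Control3) and 10 lower and 1 higher with table names. No member was called in opposite directions. Lower under both namings were CAT, GPX3, GSTA4, NFE2L2, PRDX6 and TXN, which encode catalase, a secreted glutathione peroxidase, a glutathione transferase, NRF2 itself, a peroxiredoxin and thioredoxin. GPX3 was at 77.3, 105, 102, 76.0 and 86.6 CPM in MYO and at 131, 204 and 117 CPM in Control (-0.76 ± 0.29, edgeR adjusted p 0.042), and at 366 to 851 CPM in the RemoLV-labelled libraries. GSTA4 was at 3.56, 4.23, 5.64, 8.05 and 3.55 CPM in MYO and at 10.7, 7.96 and 8.75 CPM in Control (-0.87 ± 0.23, edgeR adjusted p 0.0063). These 2 were lower in all 4 fits, but GSTA4 was not called by file label with offsets for GC content and length (-0.57, edgeR adjusted p 0.072), nor GPX3 without Control1 or Control2 or without MYO1, MYO4 or MYO5. The calls of CAT, NFE2L2, PRDX6 and TXN by file label were lost with GC offsets, and those of the first 3 also without at least 1 library. NFE2L2, at 48.4 to 62.1 CPM in MYO and 61.6 to 93.4 CPM in Control, was at 0.00 by file label with GC offsets. Among 23 iron genes 11 were lower and 1 higher by file label (7 lower without Control1, 3 higher without Control2, and 5 lower with GC offsets), and 5 lower and 8 higher with table names. HJV, the coreceptor hemojuvelin, was lower under both namings, at 15.5, 6.10, 2.89, 3.29 and 2.54 CPM in MYO and at 30.6, 23.4 and 51.3 CPM in Control (-2.53 ± 0.60, edgeR adjusted p 0.0028). The transferrin receptor TFRC and the ferritin heavy chain FTH1 were not called by file label, at 239 to 279 and 1151 to 1396 CPM in MYO and at 187 to 523 and 1178 to 1379 CPM in Control.

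For several inflammatory and stress genes called lower in MYO, Control1 and Control3 were high and Control2 was low. SOCS3, the feedback inhibitor of interleukin 6 signalling, was at 7.76, 5.61, 6.28, 11.3 and 6.18 CPM in MYO and at 90.9, 2.38 and 88.4 CPM in Control. STAT3, its activator, was at 102 to 116 CPM in MYO and at 308, 87.2 and 355 CPM in Control, and the chemokine CCL2 at 3.46 to 13.1 CPM in MYO and at 62.3, 2.14 and 59.9 CPM in Control. For these 3 genes Control2 lay below every MYO library, although each was called lower, CCL2 not without Control1 or Control3 or without MYO1, MYO2 or MYO3 (SOCS3 -3.03 ± 0.84, edgeR adjusted p 0.0080). None of the 3 was called with table names, nor CCL2 by file label with GC offsets (edgeR adjusted p 0.090). Of 42 tested cytokine response genes, 9 were lower and 3 higher by file label, and 5, 18 and 4 were lower without Control1, Control2 and Control3, and 1 higher without Control1. With table names 3 were lower and 11 higher. Heat shock proteins, which refold damaged proteins, had 10 of 32 lower and 1 higher by file label, with 3, 16 and 3 lower without these libraries in turn. With table names the list turned to 21 higher and 1 lower, with 6 members called in opposite directions and a median log2 fold change of 0.66 in place of -0.32. The list of the integrated stress response had 8 of 27 lower and 1 higher by file label (6, 9 and 1 lower without Control1, Control2 and Control3, and 5 with GC offsets), and 3 lower and 2 higher with table names. Of 42 interferon-stimulated genes 3 were higher and 4 lower by file label (7 higher without Control2, 1 lower without Control3 and 0 lower with GC offsets), and 9 higher and 0 lower with table names. OAS2, an antiviral enzyme, was at 26.6 to 86.6 CPM in MYO and 22.1 to 26.0 CPM in Control and was not called (edgeR adjusted p 0.061).

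Markers of other cell types were described by their sums and their called members. Of 13 tested lymphocyte markers 2 were higher by file label and 1 with table names, and CD4 in all 4 fits, at 3.96, 6.17, 5.22, 3.55 and 5.92 CPM in MYO and at 2.02, 1.54 and 2.54 CPM in Control (1.29 ± 0.30, edgeR adjusted p 0.0026). The sum over 17 lymphocyte markers was 29.0 to 66.31 CPM in MYO and 24.47 to 29.56 CPM in Control. Of 18 macrophage markers 3 were higher and 2 lower by file label (4 lower without Control2, 1 higher without Control3 and 1 with GC offsets), and 1 higher and 2 lower with table names. CD163, a scavenger receptor of resident macrophages, was at 60.8, 84.9, 43.1, 32.3 and 40.7 CPM in MYO and at 136, 86.8 and 110 CPM in Control (-1.08 ± 0.27, edgeR adjusted p 0.0040) and was not called with table names. Adipocyte markers summed to 86.67 to 139.2 CPM in MYO and 159.7 to 166.5 CPM in Control, and PPARG, the master factor of fat cells, was lower in all 4 fits (-0.83 ± 0.24, edgeR adjusted p 0.0087). WT1, a marker of epicardium, was higher in all 4 fits, at 20.4, 14.1, 28.2, 15.3 and 15.1 CPM in MYO and at 6.42, 9.38 and 8.89 CPM in Control (1.18 ± 0.34, edgeR adjusted p 0.010), though not by file label without Control1. PDGFRA, a fibroblast receptor, was lower in all 4 fits at 5.43 to 11.6 CPM in MYO, but Control2 had 8.43 CPM beside 22.6 and 24.8 CPM in the other controls, and neither PDGFRA nor PPARG was called by file label without Control3. Of 27 proliferation genes 15 were higher and 2 lower by file label, and 16 and 1 with GC offsets. Without Control1, Control2 and Control3 in turn, 8, 14 and 7 were higher and 1, 2 and 1 lower. With table names only TYMS was called. MKI67, which marks cycling cells, was at 9.51, 7.27, 5.78, 8.14 and 9.65 CPM in MYO and at 2.99, 1.90 and 3.31 CPM in Control (1.56 ± 0.47, edgeR adjusted p 0.013), and at 1.87 to 15.3 CPM in the RemoLV-labelled libraries, and was not called without Control2 or with GC offsets (edgeR adjusted p 0.059).

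The liposomal and the free form of the drug were given at the same dose, number of cycles and follow-up, both groups carried transcripts of the Y chromosome, and MYO and DOX were compared directly in the same model. No gene was called, with a smallest edgeR adjusted p of 0.692, and 960 genes (7.08%) had an unadjusted p under 0.05. DESeq2 called 2 genes. The median absolute log2 fold change was 0.13, against 0.44 for MYO against Control. The 95% interval of the difference lay within 1 log2 unit of 0 for 10932 genes (80.7%), and reached beyond it for the others. NPPB, at 11.5, 7.55, 34.2, 29.3 and 41.8 CPM in DOX1 to DOX5, overlapped MYO, with an interval of -0.05 to 2.65 for the log2 fold change. PDK4 had an interval of -1.35 to 0.90, COL1A1, the main fibrillar collagen, of -0.64 to 0.41, ADRB1 of -0.53 to 0.08 and JPH2 of -0.25 to 0.21. OAS2 was at 64.3, 82.4, 159, 42.4 and 96.4 CPM in DOX, with MYO at 26.6, 46.6, 29.3, 49.9 and 86.6 CPM, and its interval was -1.64 to -0.15. TIE1 and NOTCH4, endothelial receptors, had intervals of 0.15 to 0.70 and 0.15 to 0.75. For these 3 genes the interval left out 0, but the edgeR adjusted p was 0.70, 0.69 and 0.69. These intervals are by file label, and the table names exchange MYO1 with DOX5. MYO1 was the lowest MYO library for OAS2 and the highest for TIE1 and NOTCH4. In TIE1 and NOTCH4 it was at 125 and 129 CPM, with DOX5 at 70.5 and 73.5 CPM.

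Among the gene lists, the median furthest from 0 between MYO and DOX was that of immediate-early genes, transcription factors that are induced within minutes of a stimulus, and it rested on 1 library. Of 28 members 14 had an unadjusted p under 0.05, with a median log2 fold change of -1.35. ATF3 was at 2212 CPM in DOX1, at 8.99 to 83.4 CPM in the other DOX libraries and at 18.5 to 43.4 CPM in MYO. FOS was at 597 CPM in DOX1, at 3.67 to 14.3 CPM in the others and at 2.42 to 34.1 CPM in MYO. NR4A1 and NR4A3, nuclear receptors of the same class, were at 1503 and 2362 CPM in DOX1. Without DOX1 the median was 0.03 and 2 of 28 members had an unadjusted p under 0.05, while no gene was called across all genes and 681 (5.04%) had an unadjusted p under 0.05. Against Control by file label, 1 of the 28 genes was higher in MYO and 2 were lower (5 without Control2 and 0 without Control3), among them FOSL2, at 70.2 to 121 CPM in MYO and at 338, 80.1 and 441 CPM in Control (-1.64 ± 0.48, edgeR adjusted p 0.011), though not without Control3 or with table names. Interferon-stimulated genes had a median of -0.36 between MYO and DOX, with 11 of 42 members at an unadjusted p under 0.05, beside 7.08% of all genes. Without DOX1 the median was -0.31 and 10 members had such a p, and none of the 42 was called in either fit. For macrophage markers the median was -0.35 with 5 of 18 such members, and -0.39 with 6 without DOX1, and for cytokine response genes -0.34 with 10 of 42, and -0.10 with 5 without DOX1. With the names of the table, no gene was called between MYO and DOX either, and 1095 genes had an unadjusted p under 0.05. The list values between MYO and DOX given above are by file label, with MYO1 and DOX5 not exchanged. Whether they hold with table names was not tested.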

How the data were processed

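RNA of LV tissue from 19 pigs was sequenced as poly(A) libraries that mark the strand. Gene counts deposited per library had been made by the authors with STAR on Sscrofa11.1 and HTSeq-count 0.11.1 (union mode, reverse strand). A deposited table holds 14744 genes as transformed values on a log2 scale made by the authors with DESeq2 (rlog, per the methods), used here only to match its columns to the count files. Its columns of the authors' own comparisons (log2 fold changes and adjusted p-values) were not used. No column of other samples was found (0).

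Groups followed the labels of the count files. Counts of all 5 groups were fitted in 1 quasi-likelihood model (edgeR 4.0.16 in R 4.3.3; TMM, filterByExpr by group; 14 residual degrees of freedom behind the 95% intervals), with Benjamini-Hochberg adjustment over all genes tested. A gene was called at an adjusted p of at most 0.05. The SE is the size of the log2 fold change divided by the square root of the F statistic of the test. The 95% intervals use this SE. Alternatives were DESeq2 1.42.0, other filters and scaling, a replicate block, leaving out each library, and GC offsets. The script for the fits was tested on simulated data. CPM are counts per 1000000 of the scaled library. Transcript GC content, gene coordinates and promoter sequences came from RefSeq of Sscrofa11.1 by gene symbol or ID, and 16046 of 25879 genes had a symbol.

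Named genes were the 10 with the largest fold change in each direction (mean log2 CPM of at least 2, no overlap). To these came the 8 in each direction with the largest smaller fold change under both namings, within the same limits. From 46 gene lists, up to 4 with the smallest adjusted p were named, with defining members. Other members were named after their values were seen, because they were called in all 4 fits or differed between Control libraries. The members and lists were chosen with earlier results of these data known. Genes on chromosome Y stayed in the fits and are given only to check the stated sex. A few genes and sequences that these rules select are not reported here.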

Additional observations from a re-analysis of the deposited data

Results flagged for a closer look

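In 11 of 128 genes described, 1 MYO library lay apart from the other 4, with a gap to its nearest neighbour above 0.71 of the group's whole range (Dixon's test at 95%). For independent values with a normal spread, chance alone sets apart about 1 in 20 groups. CPM of genes chosen partly by their values need not follow this rate, so the count was not read against it. MYO2 stood apart for 3 genes. NPPB was at 202 CPM in MYO2 and at 14.4 to 37.8 CPM in the others (gap ratio 0.875), COL4A2 at 1539 CPM and 1070 to 1154 CPM (0.821), and HIF1A at 57.7 CPM and 67.7 to 71.2 CPM (0.735). MYO4 stood apart for 3 genes as well. OLFM1 was at 5.28 CPM there and at 25.1 to 27.6 CPM elsewhere (0.889), DBP at 9.95 CPM and 2.06 to 3.88 CPM (0.77), and FOS at 34.1 CPM and 2.42 to 8.95 CPM (0.794). In MYO1, HJV was at 15.5 CPM against 2.54 to 6.10 CPM (0.726), and PPARG at 4.59 CPM against 2.94 to 3.38 CPM (0.733). In MYO5, RPS29 was at 162 CPM against 198 to 212 CPM (0.721), and ABCC1 at 67.5 CPM against 52.7 to 55.7 CPM (0.793). PRDX6 was at 234 CPM in MYO3 and at 171 to 187 CPM in the others (0.748).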

How the results depend on the processing

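By file label, 2804 genes were higher and 2944 lower, with 167 and 168 DEGs. With GC offsets 1443 genes were higher, with 87 and 86 DEGs, and with offsets for GC content and length 1326 were higher and 1864 lower, with 90 and 89 DEGs. With only genes that have a GC value, 104 were DEGs lower. With at least 10 counts in every library, DEGs by file label were 32 higher and 56 lower, and under the other naming 85 and 74, since genes near 0 in a group are then not tested. With no filter beyond 1 count, 350 were DEGs lower by file label and 550 with table names. Leaving out 1 library gave 1826 to 3165 genes higher and 2056 to 3146 lower, 132 to 345 DEGs higher (345 without Control2) and 156 to 232 lower, and with table names 1328 to 1836 genes higher. Between MYO and DOX, DESeq2 called 2 genes. With the replicate number as a block, 2346 genes were higher and 2455 lower by file label, with 150 and 133 DEGs, and 1611 and 1554 with table names. Libraries of MYO and Control with the same number had deviations correlated at 0.055, -0.246 and -0.06, so the numbers only name animals. Of 109 genes described and called by file label, 94 stayed called without Control3, 98 without Control2 and 97 without Control1, 84 of 107 with GC offsets and 75 with GC content and length. With table names, 56, 58 and 66 of 78 stayed called without 1 or another of the 3 Control libraries of that naming. Among called genes, with GC offsets the log2 fold change by file label reversed for CPT1B (-0.0725), MYBPC3 (-0.0084) and NFE2L2 (0.0015), and with GC content and length for CPT1B (-0.12), MYBPC3 (-0.0858), COL4A2 (-0.0311) and TXN (0.24). The cause was not tested. Depth (10147011 to 20370209 counts) limits genes under about 1 CPM.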
